A study of Mus musculus with 18 samples.

Results

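Hearts that had leptin were compared with hearts that did not, across every gene measured on 18 arrays of mouse ventricular myocardium. The leptin side held 9 arrays: 4 from wild type C57Bl/6J mice, whose own leptin gene is intact, and 5 from ob/ob mice treated with leptin through an osmotic mini-pump. The leptin-deficient side also held 9 arrays, 4 from ob/ob mice that ate ad libitum and 5 from ob/ob mice restricted to the caloric intake of the leptin-treated mice. All ob/ob mice carried the leptin-null allele on the C57Bl/6J background and were divided into their groups at 6 months of age, for 1 month. The wild type mice were 6 to 8 months old, and no pump or restriction is described for them. All 18 arrays of the series were used, with the 2 groups of a side weighted equally, and 13359 genes passed the filter on low signal.

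Leptin is a hormone made by adipose tissue in proportion to fat stores. It acts through the long form of the leptin receptor, JAK2 and STAT3, with SOCS3 as a feedback inhibitor, and it lowers food intake through the hypothalamus. Mice without it eat to excess, become obese and insulin resistant, and store lipid in the heart. The 4 groups form 2 pairs with no array in common: wild type against ad libitum ob/ob, where intake was not imposed, and leptin-treated against calorie-restricted ob/ob, where intake was matched and the genotype was the same. In the first pair the leptin difference is also a difference of genotype and of lifelong body weight, and food intake was not matched. Leptin, genotype, body weight and intake cannot be told apart there. The signals come from pieces of whole ventricle, so fewer cells of a type and less RNA per cell cannot be told apart.

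The median signal ranged from 22.3 to 31.8, and the correlation of log2 signals between arrays from 0.943 to 0.971. Of 5 quality measures compared between the 9 and 9 arrays, the lowest p was 0.0731, for the actin 3' to 5' ratio (exact permutation test, two-sided, adjusted p = 0.365). Lep itself was under the filter, at mean signals of 4.11 in wild type and 8.06 in calorie-restricted hearts, so the cardiac transcript checks none of the labels. The defining markers of ventricular cardiomyocytes were high on every array: the summed signal of 12 of them ranged from 66352 to 100332. Atrial markers were not even. The atrial light chain Myl7 had a mean signal of 1559 in the calorie-restricted group with a range of 3.58 to 3548, against at most 674 on any array of the other groups. Calorie-restricted replicates 2 and 3 carried it, at 3448 and 3548, and counts are therefore also given without these 2 arrays. Some counts are also given with the signal of 3 atrial markers as a covariate. The part of atrial tissue in the results was not tested beyond these settings.

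Of the 13359 genes, 1253 (9.38%) differed between the 2 sides at an adjusted p under 0.05 (limma, Benjamini-Hochberg over all genes). Of these, 747 (5.59%) were higher with leptin and 506 (3.79%) were lower. Counts of called list members in the paragraphs that follow are to be read beside these shares. Most differences were small: the median absolute difference was 0.37 on the log2 scale, 945 of the 1253 were under 0.5 and 34 reached at least 1. For 1134 of the 1253, both leptin groups lay above both leptin-deficient groups or below both, an order that 41.1% of all tested genes had by their group means. For 84 of them, 49 higher and 35 lower, every array of one side lay above every array of the other. These were 0.629% of all tested genes, and no gene outside the 1253 had that order. Without calorie-restricted replicates 2 and 3, 882 genes were called.

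The calorie-restricted group carried much of this count. Leaving that group out, so that the leptin side was compared with ad libitum ob/ob hearts alone, 74 of the 13359 genes were called. List counts without that group are to be read beside this small share. Leaving out the ad libitum group, 1977 were called. Within the leptin-deficient side, 724 genes (5.42%) differed between ad libitum and restricted hearts. Within the leptin side, 1 gene (0.00749%) differed between wild type and leptin-treated hearts, the potassium channel gene Kcnk1. That count does not show that the other genes were alike, and 1337 genes had an unadjusted p under 0.05 in that comparison.

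The 2 pairs gave very different numbers of calls. Wild type and ad libitum ob/ob hearts differed at 40 genes (0.299%), 25 higher and 15 lower in wild type. Leptin-treated and restricted ob/ob hearts differed at 1822 genes (13.6%), 1057 higher and 765 lower with leptin. Since the pairs share no array, the direction of a gene in one can be read against the other. Over all tested genes 57.1% had the same sign in both pairs, and the correlation of the 2 differences across genes was weak (Pearson r = 0.17, Spearman rho = 0.18, across genes, which are not independent replicates). Among the 1822 genes called in the matched-intake pair, 71.7% had the same sign in the ad libitum pair. There 18.7% reached an unadjusted p under 0.05 in the same direction and 2.91% in the opposite direction, against 7.26% and 3.04% of all tested genes. A test of the difference between the pairs called 206 genes (1.54%), 116 of them among the 1253. The pairs differ in the genotype of their leptin side as well as in intake, and this test cannot tell these apart. In 185 of the 206 the larger absolute difference was the one between leptin-treated and restricted hearts.

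**Figure D1:**
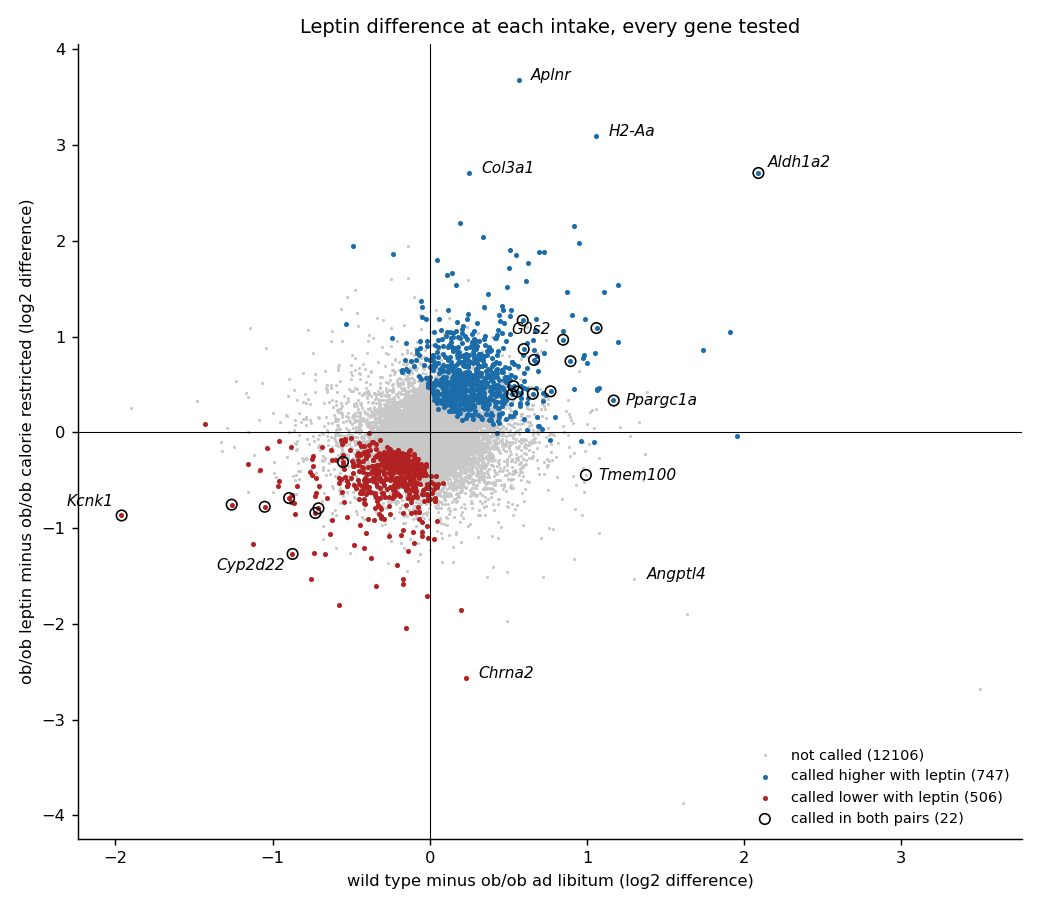
Each point is 1 of the 13359 tested genes, placed by its log2 difference between wild type and ad libitum ob/ob hearts (x axis) and between leptin-treated and calorie-restricted ob/ob hearts (y axis). Blue and red points are the 747 genes called higher and the 506 called lower with leptin over both pairs, and rings mark the 22 genes called in each pair, of which Tmem100 lies alone in the lower right quadrant.

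Called in each pair separately and in the same direction were 21 genes, 13 higher and 8 lower with leptin. The higher ones were Ahr, Aldh1a2, G0s2, Gda, Igf1r, Kcnt2, Lifr, Lpar6, Ms4a6d, Nr1d2, Ppargc1a, Slc25a33 and St8sia4. The lower ones were Adra1b, Cacng6, Cdo1, Cyp2d22, Gsta4, Kcnk1, Magi3 and Oplah. This number rests on single arrays: over the 18 fits that each left out 1 array it ranged from 2 to 24 with a median of 13.5, and Kcnk1 was the 1 gene in every one of them. Without the fourth array of the leptin-treated group 24 genes were found, and without ad libitum replicate 3 or wild type replicate 2 there were 2. It was 10 without calorie-restricted replicates 2 and 3, 6 with the signal of 3 atrial markers as a covariate, 6 with the replicate number as a block, 8 without a filter on low signal and 38 with a mean-variance trend.

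Aldh1a2, the retinaldehyde dehydrogenase that makes retinoic acid and a gene of the epicardium, had the largest difference in favour of leptin with the constant used here. Its signal was 87.7, 48.2, 38.3 and 82.7 in wild type hearts and 54.1, 40.9, 38.0, 33.4 and 49.1 in leptin-treated hearts. It was 1.03, 16.1, 8.77 and 26.7 in ad libitum hearts and 1.18, 1.98, 1.83, 1.84 and 4.15 in restricted hearts. Every leptin array was above every leptin-deficient array, and all restricted arrays were near the bottom of the scale. The difference was 2.40 (SE 0.25) on the log2 scale, 5.28-fold, with an adjusted p of 2.78e-05. It was 2.09 in the ad libitum pair and 2.71 in the matched-intake pair. Because the leptin-deficient values are low, the size depends on the constant of 5.13 added before the logarithm, and it was 3.24 with a constant of 1 and 1.11 with a constant of 32, where H2-Aa (1.92) and Aplnr (1.76) were among the genes with a larger one. Fold changes in the text are on this log2(signal + 5.13) scale throughout, which understates the change of dim genes. Of 9 tested genes of retinoic acid synthesis and response and of 8 mesothelial and epicardial markers, 1 each was called, Aldh1a2 in both cases. These shares, 11.1% and 12.5%, are near the 9.38% of all genes. The epicardial marker Wt1 differed by -0.28 (adjusted p = 0.173).

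G0s2, which blocks the lipase Pnpla2 on lipid droplets, was higher on all 9 leptin arrays. Its signal was 809, 732, 688 and 740 in wild type, 640, 808, 780, 534 and 630 in leptin-treated, 449, 372, 390 and 431 in ad libitum and 350, 279, 381, 315 and 390 in restricted hearts. The lowest leptin array, at 534, was above the highest leptin-deficient array, at 449. The difference was 0.91 (SE 0.09, adjusted p = 1.55e-05), with 0.85 and 0.97 in the 2 pairs, and a test of their difference gave an adjusted p of 0.807. Lpar6, a receptor for lysophosphatidic acid, had the same order. It ranged from 292 to 339 in wild type and from 259 to 328 in leptin-treated hearts, against 199 to 209 in ad libitum and 137 to 193 in restricted hearts. The difference was 0.73 (SE 0.07, adjusted p = 6.56e-06).

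St8sia4, which adds polysialic acid to cell surface proteins, was higher with leptin by 0.88 (SE 0.07, adjusted p = 2.01e-06). Its means were 193 ± 15.3 in wild type and 202 ± 16.3 in leptin-treated hearts, against 126 ± 9.85 in ad libitum and 86.9 ± 10.8 in restricted hearts (SD, n = 4, 5, 4 and 5). The leptin-deficient groups also differed from each other, and its 1 other probe set went the other way (-0.35), so the gene is uncertain. Ahr, the aryl hydrocarbon receptor, was higher by 0.51, and Gda, guanine deaminase, by 0.71, both without overlap of the 9 and 9 arrays. Igf1r, the receptor of insulin-like growth factor 1, was higher by 0.46, also without overlap, although 2 of its 4 other probe sets had the opposite sign. Lifr, a receptor subunit for leukaemia inhibitory factor, was higher by 0.53, Kcnt2, a sodium-activated potassium channel, by 0.60 and Slc25a33, a mitochondrial pyrimidine nucleotide carrier, by 0.82.

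Kcnk1, a potassium channel of the tandem-pore family, had the smallest p of all tested genes and was lower with leptin. The signal was 56.5, 45.2, 58.6 and 38.9 in wild type and 127, 107, 127, 130 and 141 in leptin-treated hearts. It was 196, 252, 213 and 173 in ad libitum and 277, 223, 246, 205 and 226 in restricted hearts. Wild type was lowest, leptin-treated hearts were in between and both leptin-deficient groups were high, with no overlap between these levels. The difference of the sides was -1.42 (SE 0.09, adjusted p = 3.58e-07), with -1.96 between wild type and ad libitum hearts and -0.87 between leptin-treated and restricted hearts. The pairs differed by -1.09 (adjusted p = 0.00667). Wild type and leptin-treated hearts differed by -1.27 (adjusted p = 0.000323), while ad libitum and restricted hearts differed by -0.18 (adjusted p = 0.53). Its 1 other probe set gave -1.69.

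Cyp2d22, a cytochrome P450, was lower with leptin by -1.07 (SE 0.10, adjusted p = 6.56e-06). Its means were 68.9 ± 12.2 in wild type, 104 ± 8.69 in leptin-treated, 130 ± 21.1 in ad libitum and 260 ± 40.6 in restricted hearts. An ad libitum array, at 101, lay among the leptin-treated values. Adra1b, an alpha-1 adrenergic receptor, was lower by -0.79 and Oplah, the 5-oxoprolinase of glutathione turnover, by -0.75, each without overlap. Gsta4, a glutathione transferase that handles the lipid peroxidation product hydroxynonenal, was lower by -0.79. Its mean was 620 ± 71.5 in wild type, 923 ± 104 in leptin-treated, 1154 ± 68.5 in ad libitum and 1505 ± 275 in restricted hearts, and 1 restricted array, at 1015, was under the highest leptin-treated array, at 1052. Magi3, a membrane scaffold protein, was lower by -0.43.

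**Figure D2:**
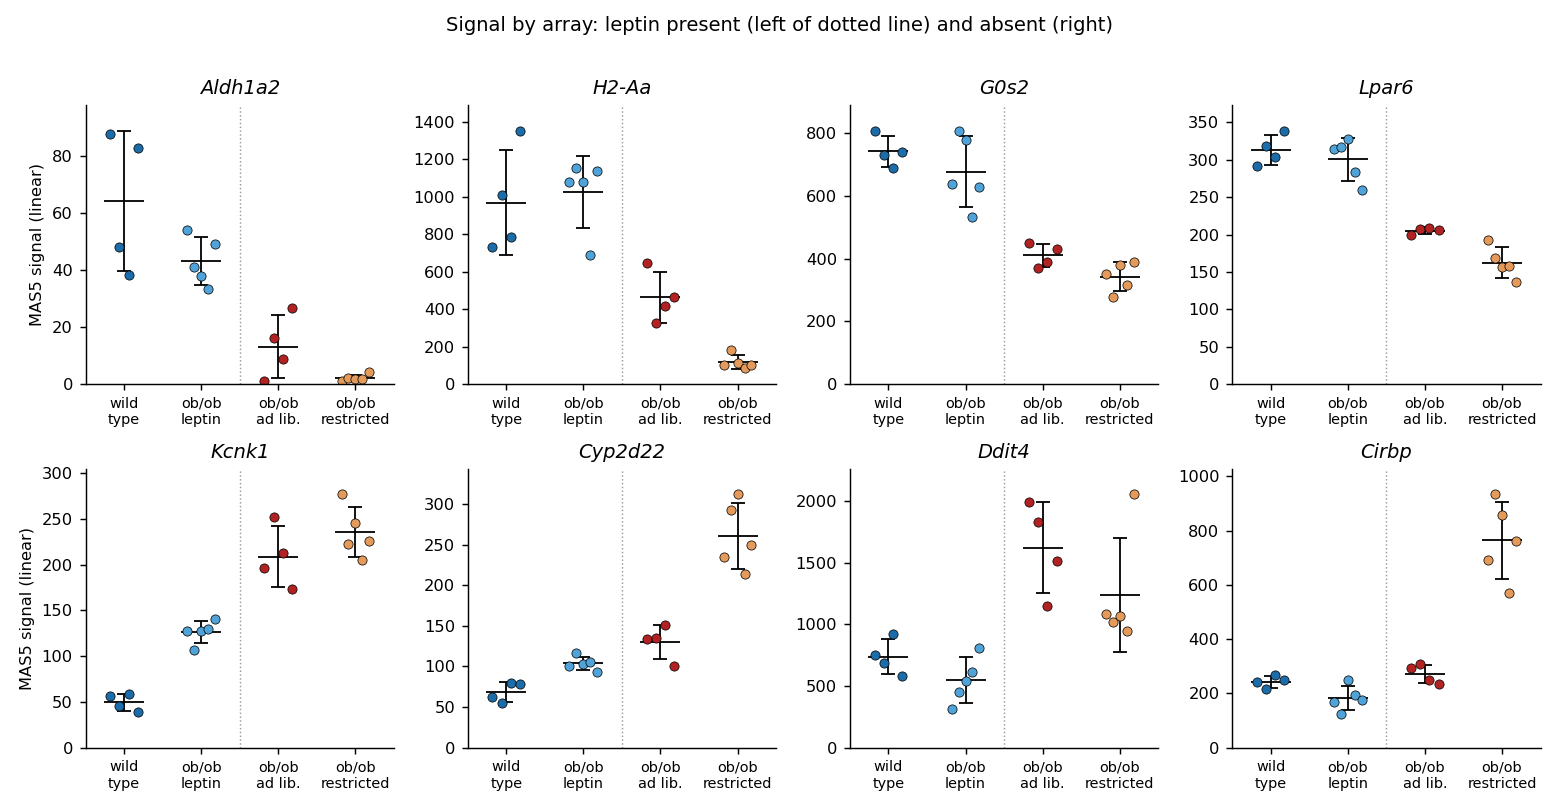
MAS5 signal (linear, y axis from 0) of 8 genes on each of the 18 arrays, by group, with the group mean and SD as a bar and whiskers. For Aldh1a2, H2-Aa, G0s2 and Lpar6 all 9 leptin arrays lie above the 9 others, for Kcnk1 and Ddit4 all lie below, for Cyp2d22 1 ad libitum array reaches the leptin-treated values, and for Cirbp the restricted group alone stands apart.

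Of 20 tested genes of leptin receptor signalling and its feedback, 2 (10%) were higher and none was lower, a share near the 9.38% called over all genes, and the median difference was -0.02, beside -0.01 over all genes. The 2 were Socs2, a feedback inhibitor of cytokine receptors, higher by 0.51 (adjusted p = 0.00332), and Irs1, an adaptor of the insulin receptor, higher by 0.59 (adjusted p = 0.00136). The signal of Socs2 ranged from 327 to 505 on the leptin arrays and from 214 to 319 on the others. Socs3, the feedback inhibitor of the leptin receptor, had means of 141 ± 26.6 in wild type, 96.5 ± 19.3 in leptin-treated, 85.7 ± 27.1 in ad libitum and 80.7 ± 15.9 in restricted hearts. Its difference of 0.49 had an adjusted p of 0.0503. Stat3 differed by 0.21 (adjusted p = 0.0846), and Lepr, which was dim at 9.13 to 48.0 on all arrays, by -0.23 (adjusted p = 0.559). Of 22 insulin and IGF signalling genes 3 were higher, Igf1r, Irs1 and the binding protein Igfbp7, and 2 were lower, the growth factor Igf2 (-0.51) and the binding protein Igfbp3. Igfbp3 had means of 87.4 ± 21.7 and 78.0 ± 17.1 with leptin and 123 ± 27.1 and 186 ± 54.0 without, a difference of -0.83 (adjusted p = 0.00319).

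Genes of antigen presentation by MHC class II were higher with leptin. These genes encode the paired chains that macrophages, dendritic cells and B cells load with peptide in the endosome. Of 10 tested members 7 were called higher and none lower, and the median difference was 0.69. The share called was 70.0%, against 5.59% of all tested genes called higher. H2-Aa, a class II alpha chain, had signals of 734, 1008, 783 and 1354 in wild type and 1077, 1152, 1078, 690 and 1139 in leptin-treated hearts. They were 648, 325, 417 and 467 in ad libitum and 104, 182, 115, 86.9 and 101 in restricted hearts. The leptin arrays were all higher than the others, ad libitum hearts were intermediate and restricted hearts were lowest. The difference was 2.08 (SE 0.17, adjusted p = 2.86e-06), and its 3 other probe sets gave 1.47 to 1.91. It was 1.06 in the ad libitum pair and 3.09 in the matched-intake pair, and these differed by -2.04 (adjusted p = 0.00667). Cd74, the invariant chain that guides class II molecules, was higher by 1.54 (adjusted p = 7.11e-05) and the beta chain H2-Eb1 by 1.46 (adjusted p = 2.81e-05), H2-Eb1 without overlap. H2-Ab1 was higher by 1.11, H2-DMa, which helps peptide loading, by 0.74, and the endosomal enzymes Ctss and Ifi30 by 0.64 and 0.43. Leptin-treated replicate 4 was the lowest of its group for H2-Aa at 690, for Cd74 at 421 and for H2-Eb1 at 320, and the count was 7 without it. With the restricted group left out 2 of the 10 were called, beside 74 of all 13359 genes. With restricted replicates 2 and 3 left out 7 were called, beside 882 of all genes.

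The promoters of H2-Aa and H2-Eb1 are shown because these chains moved together and both hold the Y box, the CCAAT-containing element known from class II promoters. The sequences are from RefSeq on GRCm38.p6, from 250 bases before to 50 bases after the gene's start, 5' to 3' on the strand of the gene, with the Y box CTGATTGG in capitals. H2-Aa lies on the minus strand at chr17:34287774-34288073 and H2-Eb1 on the plus strand at chr17:34305617-34305916.
H2-Aa: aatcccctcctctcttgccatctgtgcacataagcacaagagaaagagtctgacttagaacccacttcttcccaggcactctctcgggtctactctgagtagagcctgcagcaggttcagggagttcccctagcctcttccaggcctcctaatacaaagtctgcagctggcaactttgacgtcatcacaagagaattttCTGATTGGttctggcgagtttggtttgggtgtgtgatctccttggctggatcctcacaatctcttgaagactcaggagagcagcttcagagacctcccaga
H2-Eb1: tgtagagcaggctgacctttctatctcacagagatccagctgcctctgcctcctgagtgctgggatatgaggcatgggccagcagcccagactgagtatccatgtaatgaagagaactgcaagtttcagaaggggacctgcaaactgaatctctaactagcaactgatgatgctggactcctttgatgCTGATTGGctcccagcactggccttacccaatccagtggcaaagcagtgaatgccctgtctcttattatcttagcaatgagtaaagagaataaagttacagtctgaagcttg
The Y box begins 51 bases before the start in H2-Aa and 62 bases before it in H2-Eb1. It was found on either strand in 4.10% of all 32851 windows of this length, and in 2 of the 5 called class II genes that had a window. Its letters were chosen after the values of these genes had been seen. A match is a run of letters and not a measured binding site.

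Macrophage genes were higher with leptin as a group. Of 21 tested markers of macrophages and monocytes 15 were called higher and none lower, the median was 0.61, and all 21 differences were positive. The summed signal of the markers ranged from 5142 to 9083 in wild type, 5668 to 7979 in leptin-treated, 4498 to 5800 in ad libitum and 3118 to 4476 in restricted hearts. So the restricted range lay wholly under the 3 others, and the ad libitum range overlapped both leptin groups. Ms4a6d, a macrophage membrane protein, had means of 70.4 ± 8.19 and 63.8 ± 7.27 on the leptin side against 31.3 ± 6.38 and 28.3 ± 9.90 without leptin. Its 9 and 9 arrays did not overlap, its difference of 1.08 (adjusted p = 0.000182) was 1.06 and 1.09 in the pairs, and its 1 other probe set gave 1.38. Mpeg1, a pore-forming protein of macrophages, was higher by 1.19, with 0.34 and 2.04 in the pairs, which differed (adjusted p = 0.017). Lyz1 was higher by 0.75, Cd14, a receptor for lipopolysaccharide, by 0.70 and without overlap, and the complement gene C1qb by 0.83. The growth factor receptor Csf1r was higher by 0.55 and Adgre1, which encodes F4/80, by 0.70. Leaving out the restricted group left 2 of the 21 called, beside 74 of all 13359 genes. Leaving out wild type left 11, beside 738 of all genes, and leaving out restricted replicates 2 and 3 left 14, beside 882.

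Markers of other leukocytes did not pass the test. None of 6 dendritic cell, 3 T and NK cell, 6 B cell or 5 neutrophil markers tested was called, and none had an unadjusted p under 0.05. The dendritic cell factor Irf8 differed by 0.11 and the B cell gene Cd22 by -0.27. Most of these genes were dim, so a change in a few cells may not have been detectable. Of 6 platelet markers 2 were higher (33.3% called, against 9.38% of all genes). Ppbp, the platelet chemokine, was higher by 1.48 (adjusted p = 0.0139), at 68.9 to 185 in wild type, 28.6 to 152 in leptin-treated and 22.7 to 31.2 in ad libitum hearts, while 1 restricted array reached 131 and the other 4 lay between 18.4 and 20. Pf4, another platelet chemokine, differed by 0.28 (adjusted p = 0.082). Of 13 chemokines Ccl6, Ccl9 and Ccl11 were higher, by 0.63, 0.62 and 0.34.

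Of 31 tested interferon-responsive genes 15 were called higher and none lower, with a median of 0.37. Rsad2, an antiviral enzyme induced by interferon, had signals of 382, 390, 469 and 499 in wild type and 400, 497, 453, 426 and 489 in leptin-treated hearts. They were 283, 275, 343 and 330 in ad libitum and 197, 147, 138, 153 and 142 in restricted hearts. The leptin arrays did not overlap the others, and the 2 leptin groups had nearly the same level. The difference was 1.00 (SE 0.08, adjusted p = 3.13e-06), with 0.49 and 1.52 in the pairs, which differed (adjusted p = 0.00591). Ly6e was higher by 0.50, Ifit2 by 0.68, Ifit1 by 0.65, Gbp2 by 0.66 and the membrane protein Ifitm3 by 0.59. Of 12 genes of MHC class I loading and the immunoproteasome 6 were higher and none lower. They included Psmb8, an immunoproteasome subunit (0.50, without overlap), Psmb10 (0.35) and B2m, the light chain of class I molecules (0.57). Without the restricted group 2 of the 31 interferon genes and none of the 12 class I genes were called, beside 74 of all 13359 genes. Without restricted replicates 2 and 3 the counts were 16 and 6. The class I count rested partly on wild type replicate 4, without which 3 of the 12 were called.

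Of 47 tested collagens and other matrix genes 17 were called higher with leptin and 2 lower, with a median of 0.24, which was 0.05 in the ad libitum pair and 0.52 in the matched-intake pair. The test of the difference between pairs called 12 of the 47. Col3a1, a fibrillar collagen of stroma and vessels, had signals of 698, 775, 578 and 2646 in wild type and 835, 898, 1124, 591 and 1102 in leptin-treated hearts. They were 666, 1018, 661 and 926 in ad libitum hearts and 139, 174, 189, 106 and 79.2 in restricted hearts. The restricted group was low and the other 3 overlapped, with wild type replicate 4 far above its group. The difference of the sides was 1.48 (adjusted p = 0.00199), made of 0.25 and 2.71 in the pairs (adjusted p for their difference = 0.0266). The basement membrane collagen Col4a1 was higher by 0.58, with -0.02 and 1.18 in the pairs, and the collagen chaperone Serpinh1 by 0.62, with 0.06 and 1.19. Sparc, a matrix protein that binds collagen, was higher by 0.69, although 1 of its 2 other probe sets gave -0.48. Col6a2 was higher by 0.81, with -0.23 and 1.86. The 2 lower members were Col5a3 (-0.53) and elastin, Eln (-0.34), both with the larger difference in the ad libitum pair, -0.96 and -0.56.

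Of 14 fibroblast markers 8 were called higher and none lower, with a median of 0.50. Dpt, dermatopontin, was higher by 0.57 and Thy1 by 0.54. Their means were lowest in restricted hearts, at 565 ± 71.4 and 51.2 ± 7.02, and highest in wild type, at 1059 ± 183 and 98.1 ± 14.1. Pi16, a secreted fibroblast protein, was higher by 1.29 and the carboxypeptidase family gene Cpxm2 by 1.31. Pi16 had means of 481 ± 169, 238 ± 87.5, 213 ± 45.9 and 79.4 ± 15.3 from wild type through leptin-treated and ad libitum to restricted hearts. Nrep was higher by 1.29, at 54.5 ± 8.66 in restricted hearts against 153 ± 20.9 in ad libitum hearts. Without the restricted group none of the 14 fibroblast markers and 1 of the 47 matrix genes was called, the latter lower, beside 74 of all 13359 genes. Without restricted replicates 2 and 3 the counts were 8, and 15 higher with 1 lower.

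Aplnr, the receptor of apelin on endothelial cells, was higher with leptin and was low in restricted hearts. Its signals were 398, 348, 273 and 551 in wild type, 425, 614, 571, 429 and 504 in leptin-treated, 185, 198, 265 and 435 in ad libitum and 33.5, 26.7, 37.9, 31.9 and 44.8 in restricted hearts. The ad libitum range overlapped the leptin groups, and no restricted array came near them. The difference was 2.12 (adjusted p = 2.01e-06), with 0.56 and 3.68 in the pairs, which differed by -3.12 (adjusted p = 0.000283). Of 19 genes of the VEGF, angiopoietin and apelin systems 4 were higher, Aplnr, Nrp1 (0.33), Vegfc (0.47) and the angiopoietin receptor Tek (0.28), and 1 was lower, Epha4 (-0.39). The median of this list was 0.0002 in the ad libitum pair and 0.31 in the matched-intake pair. Of 16 endothelial markers Tek, Pcdh12 (0.90) and Emcn (0.25) were higher and none was lower, with a median of 0.12. That median was -0.09 in the ad libitum pair and 0.30 in the matched-intake pair. Pcdh12 had means of 77.6 ± 10.6 in wild type, 60.2 ± 10.1 in leptin-treated, 70.7 ± 14.9 in ad libitum and 17.8 ± 12.8 in restricted hearts. The summed endothelial signal of restricted hearts, 9007 to 10609, lay within or beside the ranges of the other groups, 9294 to 11370.

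**Figure D3:**
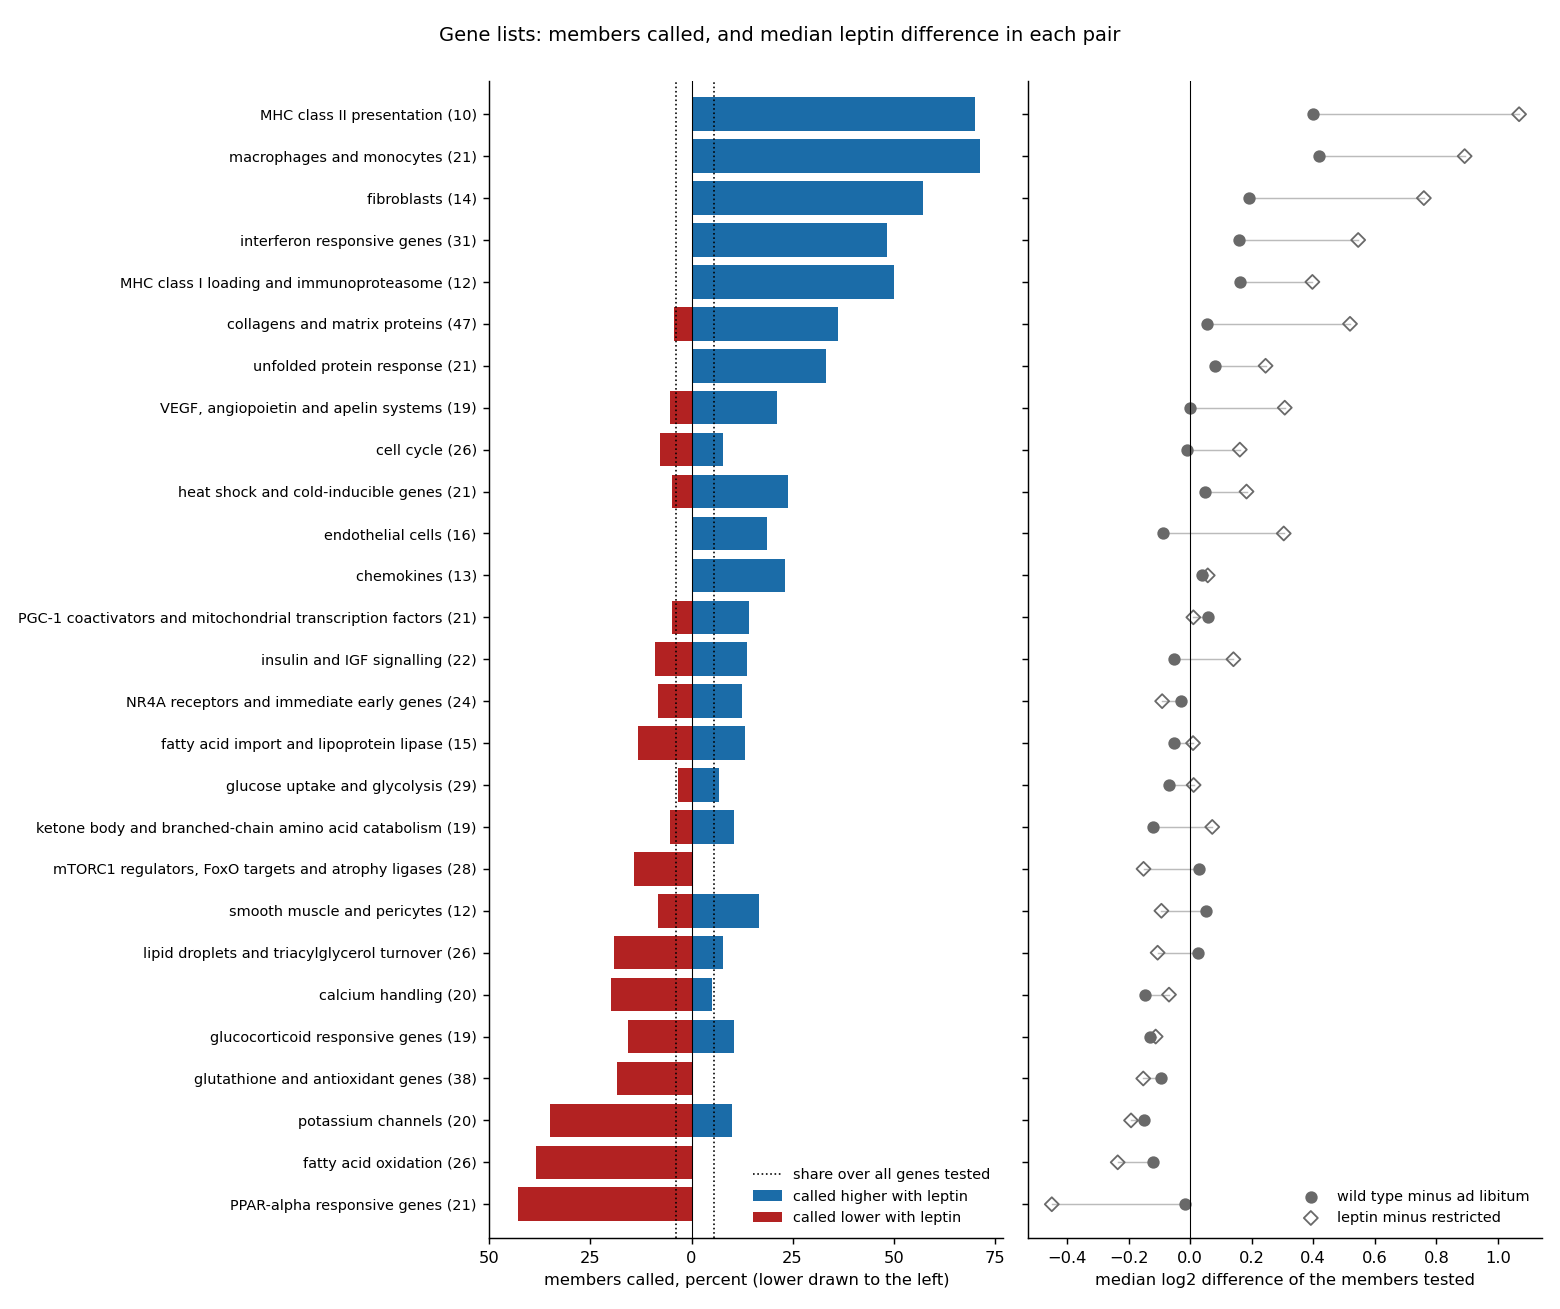
Gene lists with at least 3 called members and at least 10 tested members (27 of 54 lists, the number tested in brackets). Bars on the left give the percent of members called higher (blue) and lower (red) with dotted lines at the 5.59% and 3.79% of all tested genes. Points on the right give the median log2 difference in the ad libitum pair (filled) and the matched-intake pair (open). These medians lie far apart for the MHC class II, fibroblast, macrophage, matrix and PPAR-alpha lists.

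Many genes of fatty acid oxidation were lower with leptin. This pathway shortens acyl-CoA in mitochondria and supplies most of the energy of the adult heart, and PPAR-alpha is its main transcriptional regulator. Of 26 tested genes of fatty acid oxidation 10 were called lower and none higher, a share of 38.5% against 3.79% of all genes called lower, and the median was -0.18. Of 21 PPAR-alpha responsive genes, which share members with that list, 9 were lower and none higher, with a median of -0.20 that was -0.02 in the ad libitum pair and -0.45 in the matched-intake pair. Acaa2, a mitochondrial thiolase, had signals of 3370 to 3559 in wild type, 3094 to 4188 in leptin-treated, 3648 to 4356 in ad libitum and 4619 to 5570 in restricted hearts. Restricted hearts were above all others, ad libitum hearts were above wild type, and the leptin-treated range overlapped both of these. The difference was -0.31 (adjusted p = 0.00854). Mlycd, malonyl-CoA decarboxylase, was lower by -0.33, with means of 565 ± 41.6, 549 ± 64.9 and 572 ± 52.6 in the wild type, leptin-treated and ad libitum groups against 856 ± 73.0 in restricted hearts. Eci2, an enoyl-CoA isomerase, was lower by -0.26 and had means of 1227 ± 59.1, 1217 ± 90.9, 1204 ± 91.7 and 1775 ± 124 in the same order. Cpt1a, a carnitine palmitoyltransferase, was lower by -0.42 and the dehydrogenases Acadl and Acadm by -0.20 and -0.21. Without the restricted group none of the 26 and none of the 21 was called, beside 74 of all 13359 genes. Without restricted replicates 2 and 3 there were 7 and 5. With quantile normalization of the arrays 8 and 7 were called lower, and the medians were -0.10 and -0.12.

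Ppara, which encodes PPAR-alpha, went the other way from its responsive genes. It was higher with leptin by 0.50 (adjusted p = 0.00979), at 523 ± 32.5 in wild type, 461 ± 40 in leptin-treated, 389 ± 39.5 in ad libitum and 316 ± 82.3 in restricted hearts. Its 2 other probe sets gave 0.32 and 0.37. Ppargc1a, the PGC-1alpha coactivator of mitochondrial gene expression, was higher by 0.75 (adjusted p = 2.78e-05), and its 4 other probe sets gave 0.69 to 0.95. Its signals were 1152, 1181, 1250 and 1569 in wild type, 915, 1034, 866, 844 and 937 in leptin-treated, 564, 538, 607 and 561 in ad libitum and 659, 631, 733, 745 and 893 in restricted hearts. Wild type was highest and ad libitum hearts lowest, and 1 restricted array overlapped the leptin-treated group. The pairs gave 1.17 and 0.33 and differed by 0.83 (adjusted p = 0.0134). Of 21 genes of the PGC-1 and mitochondrial transcription list 3 were higher, Ppargc1a, Ppara and Tfb1m (0.35), and 1 lower, Esrrb (-0.23). The share called was 19.0%, against 9.38% of all genes. Of 74 oxidative phosphorylation genes 1 was called, Cox8a (0.18), and none of 28 genes of pyruvate dehydrogenase and the citric acid cycle was, with medians of -0.09 and -0.10. With quantile normalization these medians were -0.008 and -0.04, so their size depended on the scaling of the arrays.

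Lipid storage and import genes were mixed. Of 26 genes of lipid droplets and triacylglycerol turnover G0s2 and Agpat1 (0.28) were higher and 5 were lower. Pnpla2, the lipase that G0s2 inhibits, was lower by -0.35, at close to 0 in the ad libitum pair and -0.70 in the matched-intake pair. Plin5, a droplet protein of oxidative tissue, was lower by -0.37 and Dgat1, which forms triacylglycerol, by -0.29. Cidea, which promotes droplet fusion, was lower by -0.34 (adjusted p = 0.00681), with a mean of 758 ± 84.1 in restricted hearts against 416 ± 23.5 to 459 ± 35.8 in the 3 others. Cidea is also an adipocyte marker. The summed signal of 5 adipocyte markers was 1013 to 1340 in restricted hearts and 616 to 792 on all other arrays. That sum includes Cidea itself, at 616 to 816 in restricted hearts, so it is no separate measure. Of the other markers, Lipe had means of 362 ± 61.5 in restricted and 221 ± 54.6 in ad libitum hearts, and Retn 45.2 ± 27.4 and 43.5 ± 29.6. Adipoq was under the filter, and the part of adipocytes in the Cidea difference was not tested. Slc27a1, a fatty acid transport protein, was lower on every leptin array. It ranged from 260 to 349 on the leptin arrays, 353 to 468 in ad libitum and 629 to 760 in restricted hearts, a difference of -0.73 (adjusted p = 1.55e-05). The pairs, -0.41 and -1.05, differed (adjusted p = 0.0301). The binding protein Fabp5 was higher by 0.43 without overlap, at 738 to 1050 with leptin and 492 to 680 without. Elovl5, a fatty acid elongase, was higher by 0.46, also without overlap.

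Of 8 tested cysteine and taurine genes 1 was lower and 1 higher. Cdo1, cysteine dioxygenase, which commits cysteine to taurine, was lower with leptin by -1.0 (adjusted p = 0.00134), with means of 40.3 ± 12.3 in wild type, 75.6 ± 21.7 in leptin-treated, 101 ± 17.3 in ad libitum and 131 ± 35.9 in restricted hearts. Cth, which forms cysteine from cystathionine, was higher by 0.74 (adjusted p = 0.0268). Psat1, of serine synthesis, was lower by -0.97 and was high in restricted hearts alone, at 68.0 ± 8.40 against 30.2 ± 0.85 in ad libitum hearts. Gnmt, glycine N-methyltransferase, was lower by -1.19 and was dim, at 13.7 ± 8.98, 9.82 ± 2.40, 24.6 ± 14.3 and 47.5 ± 11.6 from wild type to restricted. Sult1a1, a sulfotransferase, was lower by -0.97 without overlap, at 289 to 579 with leptin and 615 to 1327 without. Chrna2, a nicotinic receptor subunit (-1.17), Pou5f2, a POU domain gene (-1.14), and the proteoglycan Spock2 (-1.0) were also among the 12 largest decreases. Chrna2 and Pou5f2 were dim, and each differed by -0.56 with a constant of 32. Chrna2 ranged from 2.15 to 38.6 with leptin, 4.09 to 20.6 in ad libitum and 43.5 to 71.6 in restricted hearts. Pou5f2 ranged from 4.57 to 12.5 with leptin and from 7.23 to 75.9 without, with overlap. Spock2 had means of 107 ± 16.5 and 139 ± 47.5 with leptin and 182 ± 30.5 and 333 ± 71.1 without.

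Of 38 glutathione and antioxidant genes 7 were lower and none higher, with a median of -0.13. Besides Gsta4 they were Nqo1, a quinone reductase (-0.48), catalase, Cat (-0.24), Keap1 (-0.26), Sod1 (-0.32), Gstm2 (-0.20) and Gstm5 (-0.25). Nqo1 had means of 274 ± 29.1 and 289 ± 31.1 with leptin and 381 ± 62.5 and 410 ± 31.2 without, nearly the same difference in the pairs, -0.46 and -0.50. Without the restricted group 1 of the 38 was called, beside 74 of all 13359 genes. Without restricted replicates 2 and 3 the counts were 4 lower and 1 higher. Of 29 genes of glucose uptake and glycolysis 2 were higher, hexokinase Hk2 (0.33) and the transporter Slc2a1 (0.29). In the same list 1 was lower, the alpha-arrestin Arrdc4 (-0.83), whose 1 other probe set gave 0.15. The share called, 10.3%, is near the 9.38% of all genes. Hk2 had means of 1874 ± 102 in wild type, 1675 ± 157 in leptin-treated, 1684 ± 102 in ad libitum and 1184 ± 201 in restricted hearts. Those of Arrdc4 were 51.0 ± 19.6, 34.7 ± 6.67, 42.0 ± 2.67 and 143 ± 45.5 in the same order. For both genes the ad libitum mean lay between those of the 2 leptin groups.

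Of 20 tested potassium channel genes 7 were lower with leptin and 2 higher, with a median of -0.17. Without restricted replicates 2 and 3, or without wild type replicate 4, 4 were lower and 1 higher. Without the restricted group 1 was lower and none higher, beside 74 called of all 13359 genes. Kcnj11, the pore of the ATP-sensitive channel, ranged from 641 to 814 on the leptin arrays and from 839 to 1171 on the others, without overlap, a difference of -0.36 (adjusted p = 0.00286). Kcnk3, of the same family as Kcnk1, was lower by -0.32 (adjusted p = 0.00286). The voltage-gated channels Kcna5 (-0.35), Kcnd3 (-0.36), Kcnh2 (-0.29) and Kcna1 (-0.51) were also lower, while Kcnip2, a subunit of the transient outward current, was higher by 0.55 and Kcnj8 by 0.20. Of 20 calcium handling genes 4 were lower and 1 higher. Cacng6, a gamma subunit of calcium channels, had means of 20.9 ± 3.15 and 21.3 ± 3.69 with leptin and 48.6 ± 7.5 and 40.8 ± 9.92 without. Its difference was -0.91 (adjusted p = 0.000163), or 1.88-fold, with -1.05 and -0.78 in the pairs, and 1 restricted array, at 25.6, reached into the leptin range. Cacnb2 (-0.32), Cacna2d1 (-0.22) and the T-type channel Cacna1h (-0.49) were lower. The sodium-calcium exchanger Slc8a1 was higher by 0.63, but 2 of its 3 other probe sets had the opposite sign.

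None of the 12 ventricular cardiomyocyte markers was called, with a median of -0.11, and Myh6 differed by -0.12 (adjusted p = 0.296). With quantile normalization the median of these markers was -0.003. Of 21 sarcomere genes 1 was higher, the skeletal alpha-actin Acta1, by 1.07 (adjusted p = 0.0168). It ranged from 1927 to 3071 in wild type, 615 to 2037 in leptin-treated, 395 to 1698 in ad libitum and 514 to 842 in restricted hearts, so that wild type was above both leptin-deficient groups and the leptin-treated range overlapped all the others. Myh7, the slow myosin heavy chain, had means of 399 ± 137, 701 ± 254, 289 ± 127 and 287 ± 112 from wild type to restricted, a difference of 0.87 with an adjusted p of 0.0538. Nppb, the B-type natriuretic peptide gene, had 2151 ± 348, 1915 ± 837 and 2407 ± 587 in the first 3 groups and 645 ± 255 in restricted hearts. Its difference of the sides, 0.74, did not pass (adjusted p = 0.0771). Nppa differed by 0.17 (adjusted p = 0.806), with a spread of 1086 to 5724 among restricted hearts, where the 2 highest values belong to replicates 2 and 3. Npr3, the natriuretic peptide clearance receptor, was lower by -0.44 (adjusted p = 0.00931). Among restricted hearts its signal was 262 and 254 in replicates 2 and 3 and 167 to 181 on the others, beside 138 to 175 in ad libitum hearts. Acta1 and Npr3 were the 2 called of 11 natriuretic peptide and load genes (18.2%, against 9.38% of all genes).

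Some circadian clock genes differed although all mice were killed between 7 and 8 in the morning. The clock rests on the activators BMAL1 and NPAS2 or CLOCK, which drive their own repressors and output genes such as Dbp. Of 6 tested activators and related regulators 2 were lower with leptin, Arntl, which encodes BMAL1 (-0.67, adjusted p = 0.00121), and Npas2 (-0.85, adjusted p = 0.038). Of 10 repressors 2 were higher, Nr1d2 (0.49, adjusted p = 0.000507) and Per3 (0.46, adjusted p = 0.00404), and of 7 outputs 2 were higher, Dbp and Tspan4. Dbp had signals of 207, 338, 365 and 186 in wild type and 524, 373, 656, 797 and 427 in leptin-treated hearts, against 117, 131, 115 and 88.7 in ad libitum and 251, 193, 154, 117 and 220 in restricted hearts. By their means leptin-treated hearts were highest and ad libitum hearts lowest, while wild type and restricted hearts overlapped. The difference was 1.37 (SE 0.18, adjusted p = 0.000306), with 1.20 and 1.54 in the pairs, and its 1 other probe set gave 1.09. Arntl was lowest in leptin-treated and highest in ad libitum hearts, at 59.2 ± 11.7 in leptin-treated, 98.1 ± 17 in restricted, 119 ± 23.7 in wild type and 188 ± 11.8 in ad libitum hearts. Between ad libitum and restricted hearts Arntl differed by 0.92 (adjusted p = 0.00197) and Dbp by -0.67 (adjusted p = 0.158). Tspan4 was higher by 0.38 over both pairs but only by 0.04 in the matched-intake pair, and Per1 differed by -0.44 (adjusted p = 0.0595).

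The promoter of Per3 is shown because it was the 1 called clock repressor of 2 with a window that held the D-box, the element bound by DBP and its relatives. It is from RefSeq on GRCm38.p6, minus strand, chr4:151044616-151044915, 5' to 3' on the strand of the gene, with both D-boxes in capitals.
Per3: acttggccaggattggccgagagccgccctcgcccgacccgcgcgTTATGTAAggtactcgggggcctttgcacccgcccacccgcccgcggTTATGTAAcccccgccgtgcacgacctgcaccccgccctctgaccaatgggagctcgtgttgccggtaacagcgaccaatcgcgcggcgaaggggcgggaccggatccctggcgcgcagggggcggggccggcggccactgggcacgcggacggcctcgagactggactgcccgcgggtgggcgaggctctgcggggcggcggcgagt
The D-boxes, searched as TTANNTAA on both strands, begin 205 and 158 bases before the start. These letters occur in 6.00% of all 32851 windows of this length. Of the 89 called genes picked by the naming rule that had a window, 4 held the D-box, 10 the E-box CACGTG, which clock activators bind and which occurs in 7.15% of windows, and 8 the STAT motif TTCNNNGAA, which occurs in 8.30%.

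Stress-related genes moved in several directions. Ddit4, which encodes REDD1, an inhibitor of mTORC1 induced by glucocorticoids and energy stress, had signals of 752, 690, 921 and 584 in wild type and 315, 453, 541, 617 and 810 in leptin-treated hearts. They were 1994, 1829, 1151 and 1514 in ad libitum and 1082, 1019, 1065, 949 and 2054 in restricted hearts. All leptin arrays were under all others. The difference was -1.15 (SE 0.18, adjusted p = 0.00123) and nearly equal in the pairs, -1.12 and -1.17. Of 19 glucocorticoid-responsive genes 3 were lower, Ddit4, Tsc22d3 (-0.40) and the cell cycle inhibitor Cdkn1a (-0.60), and 2 were higher, the receptor gene Nr3c1 (0.29) and the metallothionein Mt2 (0.68). Of 28 mTORC1, FoxO and atrophy genes 4 were lower, among them Map1lc3a (-0.29) and Mtor (-0.22), and none was higher. The shares called in these 2 lists were 26.3% and 14.3%, against 9.38% of all genes. Cirbp, a cold-inducible RNA-binding protein, was lower by -1.10 (adjusted p = 4.54e-05), but with -0.15 and -2.05 in the pairs. Its mean was 763 ± 142 in restricted hearts and 183 ± 44.7 to 272 ± 34.2 in the 3 others, and the pairs differed (adjusted p = 0.00113).

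Several chaperone genes were higher with leptin. Of 21 heat shock and cold-inducible genes 5 were higher, all chaperones or co-chaperones, and Cirbp was lower. Hsp90aa1 was higher by 0.52 (adjusted p = 0.000789) and Hsph1 by 0.93 (adjusted p = 0.00214). Hsph1 had means of 383 ± 109, 311 ± 55.1, 240 ± 71.3 and 136 ± 36.5 from wild type to restricted. Of 21 genes of the unfolded protein response of the endoplasmic reticulum 7 were higher and none lower, with a median of 0.18. Hyou1 was higher by 0.50, Sdf2l1 by 0.42, Manf by 0.37 and the disulfide isomerase Pdia3 by 0.33, whose 1 other probe set gave -0.01. Without the restricted group none of either list was called, beside 74 of all 13359 genes. Without its replicates 2 and 3 the counts were 3 and 4 higher, with Cirbp lower. Nr4a3, an orphan nuclear receptor of the immediate early response, was higher by 1.30 (adjusted p = 0.00151), at 69.1 to 152 in wild type, 35.3 to 102 in leptin-treated, 16.1 to 32.8 in ad libitum and 17.5 to 44.0 in restricted hearts, though its 1 other probe set gave -0.01.

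Of the 206 genes whose leptin difference differed between the pairs, 137 had opposite signs in the 2 pairs. In 54 of these both pairs had an unadjusted p under 0.05. Angptl4, an inhibitor of lipoprotein lipase and a PPAR target, had signals of 451, 264, 208 and 214 in wild type, 312, 252, 270, 189 and 97.1 in leptin-treated, 112, 81.1, 126 and 112 in ad libitum and 557, 663, 660, 813 and 435 in restricted hearts. Ad libitum hearts were lowest and restricted hearts highest by their means, with 1 leptin-treated array inside the ad libitum range and 1 wild type array inside the restricted range. The difference of the sides was -0.12 (adjusted p = 0.795), made of 1.30 and -1.53, and the pairs differed by 2.83 (adjusted p = 0.004). Ucp3, a mitochondrial carrier protein, had the same pattern, at 184 ± 25.9 in ad libitum, 304 ± 42.8 in wild type, 315 ± 105 in leptin-treated and 661 ± 129 in restricted hearts, and the pairs differed by 1.81 (adjusted p = 0.00703). Tmem100, an endothelial membrane protein, was the 1 gene called in each pair in opposite directions, 0.99 and -0.45, with means of 224 ± 46.5, 184 ± 14.4, 109 ± 12.5 and 253 ± 26.9 from wild type to restricted.

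Other genes of this kind went one way in the matched-intake pair and showed a small or opposite difference in the other. Bdh1, which interconverts ketone bodies, was higher by 0.30 over both pairs, with -0.54 and 1.13, and restricted hearts stood apart at 774 ± 148 against 1907 ± 183 in ad libitum hearts. P2ry6, a nucleotide receptor, had -0.49 and 1.95, with a dim 4.76 ± 2.60 in restricted hearts. Chrna2 had 0.23 and -2.57, and Arrdc4 0.20 and -1.85. A pair of genes had their difference in the ad libitum pair. The platelet receptor Clec1b, with 1.95 and -0.03, was at 3.98 ± 5.85 in ad libitum hearts and 24.1 ± 8.62 to 27.4 ± 11.7 in the others, and the transcription factor Klf10 had 1.05 and -0.10.

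**Figure D4:**
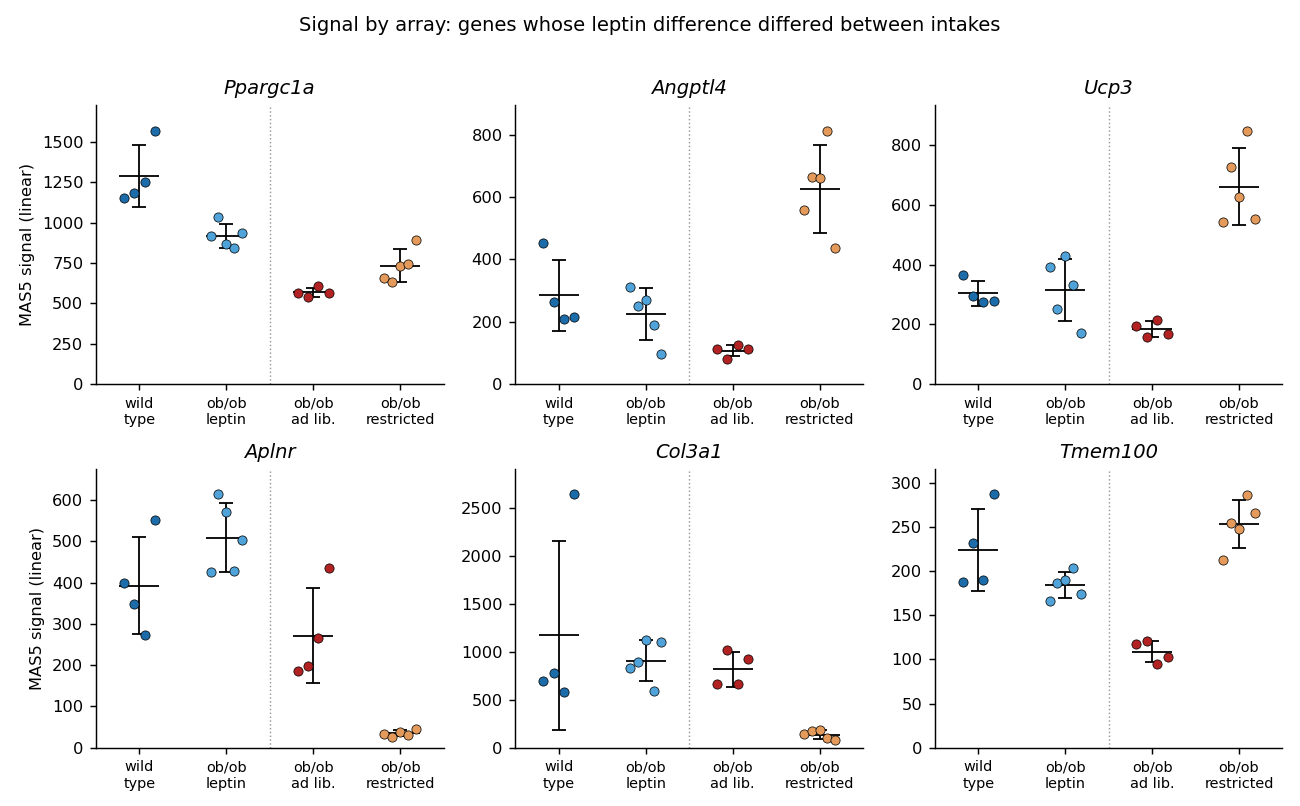
MAS5 signal (linear, y axis from 0) of 6 genes on each of the 18 arrays by group, with group mean and SD. The leptin difference of these genes differed between the ad libitum pair and the matched-intake pair. These pairs differ in the genotype of their leptin side as well as in intake. Angptl4, Ucp3 and Tmem100 have their lowest mean in ad libitum and their highest in restricted hearts, Aplnr and Col3a1 are low in restricted hearts alone, and Ppargc1a is highest in wild type and lowest in ad libitum hearts.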

How the data were processed

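Total RNA of ventricular myocardium was hybridised to Affymetrix Mouse 430 2.0 arrays, 1 per sample. The deposited table holds the authors' linear signal intensity per probe set, made with MAS5 per the submitters' processing notes, and its trimmed mean was 100.001 on every array. Such scaling hides a shift shared by most genes. Of 45101 probe sets 64 were controls and left out, 34945 had 1 gene symbol in the platform annotation, 932 had several and 9160 were not listed there. Intensities were taken as log2(signal + 5.13), 5.13 being the value that 20% of signals do not exceed. Each gene was read from its probe set with the highest mean, and genes with a mean log2 under 4.36, the 40th percentile, were left out. Array signals carry no counts, so the number of arrays limits the precision.

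A model with 1 mean per group over all 18 arrays was fitted with limma 3.58.1 in R 4.3.3 (lmFit and eBayes, two-sided), with p adjusted over 13359 genes by Benjamini-Hochberg and a threshold of 0.05 for a call. Python 3.11.15 was used for the summaries. The fit was tested on simulated data. Means are given ± SD, with n = 4 for wild type and ad libitum and n = 5 for leptin-treated and restricted hearts. Nothing in the labels says that samples came from separate animals, so a p-value reflects only how far these samples spread, which may be technical. Alternatives were other constants, filters, normalizations and model settings, and leaving out arrays or groups.

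The members and the 54 gene lists were chosen with earlier results of these data known, so lists are described by counts and medians and carry no test. Named were the 12 called genes with the largest difference in each direction, the 6 with the smallest p and no overlap of the 9 and 9 arrays, and the 4 largest interactions in each direction. Also named were, for each list with a called member, its 3 lowest p-values at most, at most 2 of the other lists, and fixed genes of leptin signalling, metabolism and load. Unnamed clones were to be passed over. The genes called in both pairs, further members of lists and the Y box were chosen after their values were seen.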

Additional observations from a re-analysis of the deposited data

Results flagged for a closer look

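In 26 of 484 groups of 4 or 5 arrays, 1 array stood far from the others of its group. Chance gives about 1 in 20 such groups, so the number is near what chance gives. Leptin-treated replicate 4 was low for 3 class II genes, H2-Aa at 690, Cd74 at 421 and H2-Eb1 at 320. In the same group replicate 3 was high for Arrdc4 at 46.5, replicate 1 high for Chrna2 at 20.2 and replicate 5 low for Mlycd at 436. Ad libitum replicate 1 was set apart for Hk2 at 1531, Insig1 at 102, Irs1 at 317, Lifr at 321, Sdf2l1 at 61.4 and Tfb1m at 198. Ad libitum replicate 4 was set apart for Cacnb2 at 489, Kcnj11 at 935 and Per3 at 26.8, and replicate 2 for Cpxm2 at 189. Restricted replicate 1 was low for Adra1b at 99.6 and Gsta4 at 1015, replicate 4 was high for Pi16 at 107 and low for Sdf2l1 at 26, and replicate 5 was high for Ddit4 at 2054, Nr3c1 at 332 and Ppbp at 131. Wild type replicate 4 was set apart for Hyou1 at 272, Nrp1 at 974 and St8sia4 at 216.

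For 34 named genes the leptin difference in the ad libitum pair differed from that in the matched-intake pair by limma's interaction test. It is given here as the first minus the second on the log2 scale. Positive values were found for Angptl4 (2.83), Chrna2 (2.80), Arrdc4 (2.05), Clec1b (1.99), Cirbp (1.89), Ucp3 (1.81), Tmem100 (1.44), Psat1 (1.26), Klf10 (1.15), Ccl11 (0.85), Ppargc1a (0.83), Cidea (0.74), Slc27a1 (0.64), Mlycd (0.63) and Eci2 (0.57). Negative values were found for the matrix genes Col3a1 (-2.46), Col6a2 (-2.09), Col4a1 (-1.20), Sparc (-1.16) and Serpinh1 (-1.13), and for the vascular genes Aplnr (-3.12) and Tek (-0.57). They were also found for the immune genes P2ry6 (-2.44), H2-Aa (-2.04), Mpeg1 (-1.70), Rsad2 (-1.03) and Ly6e (-0.77), and for Bdh1 (-1.66), Slc8a1 (-1.36), Nrep (-1.20), Kcnk1 (-1.09), Ccnd2 (-0.92), St8sia4 (-0.58) and Elovl5 (-0.47).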

How the results depend on the processing

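The count of 1253 genes stayed within 1.5 times under other constants, filters, normalizations and models, and was 967 to 1232 with 1 array left out. It was 738 without wild type, 408 without the leptin-treated group, 1977 without the ad libitum group and 74 without the restricted group. Between wild type and ad libitum hearts, 40 genes became 13 without a filter, 82 with a mean-variance trend (40 higher, 42 lower, against 25 and 15), 10 with an atrial covariate, 18 without restricted replicates 2 and 3, and 5 to 45 with 1 array left out. The 1822 genes of the matched-intake pair became 1196 with the atrial covariate and 1026 without those replicates (1378 to 1817 with 1 array left out). The 206 genes differing between pairs became 99 without a filter, 332 with the trend, 53 with the atrial covariate and 75 without those replicates (83 to 232). The 724 genes differing by intake without leptin became 316 and 352 (444 to 735). Within the leptin side 1 gene became 2 with a constant of 32, 2 with the stricter filter, 5 over all probe sets, 2 with the trend, 3 with array weights and 2 without those replicates (1 to 5). The genes without overlap numbered 86 to 145 with 1 array left out and those with all group pairs in order 863 to 1130. With the replicate number as a block, 11 genes differed between wild type and ad libitum hearts and 97 between the pairs, and 1035 were called over both. Whether the replicate numbers pair the samples cannot be told from these data. Of 25 same-number correlations of the deviations from the group means 1 was over 0.1, and the highest was 0.345. Their median was -0.025, beside 0.0113 for the other pairs of arrays. Without the ad libitum group Tspan4 turned to -0.14. Without the restricted group Ccnd2 turned to -0.0072, Cidea to 0.0836, P2ry6 to -0.20, Eci2 to 0.023, Pcdh12 to -0.0339, Serpinh1 to -0.0091, Col6a2 to -0.13 and Bdh1 to -0.36. Of 121 named called genes 107 kept their call with any 1 array left out. The cause of these changes was not tested. Fits that left out arrays also had fewer of them, and the part of that was not tested either.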
